A study of Mus musculus with 15 samples.

Results

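The oligodendrocyte lineage was followed through 8 genes, of 22180 measured, in cells of newborn mouse cerebellum that had been enriched for granule neuron progenitors. Of the 8 genes, 6 mark precursors of the lineage (Olig1, Olig2, Pdgfra, Cspg4, Sox10 and Gpr17) and 2 build myelin (Mbp and Cnp). They were chosen by name as established markers, not by their level, and each was read from the array row that carries its symbol and no other. Gpr17 has another row, shared with Lims2, which was not used. No member differed between the genotype groups past the threshold of an adjusted p of 0.05. The levels that came nearest were those of Mbp and of the growth factor receptor Pdgfra. Their means were 0.31 to 0.41 log2 units lower in the libraries labelled DKO than in either control. Lists of pericyte, endothelial and microglial markers also had lower medians in DKO, by -0.35 to -0.20 against either control. The median of meningeal markers was -0.18 against the no-Cre and 0.00 against the Math1-Cre control. Sox10, Olig1, Olig2 and Cnp instead followed the serotonin transporter gene Slc6a4, a gene of brainstem neurons, from library to library, with r of 0.64 to 0.77 over 15 libraries. Without the 2 libraries most extreme in Slc6a4, r was 0.54 to 0.68 over 13 and no longer passed. After quantile normalization of the 15 libraries, only Sox10 and Olig1 passed. These correlations were adjusted over the 8 members only. The slope on Slc6a4 within genotype groups, adjusted over all genes, passed for none of the 8 members and for 0.261% of all genes.

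The series holds 15 libraries of total RNA, 5 per genotype, from cerebella of C57BL/6 mice, given as postnatal day 1 in the sample characteristics and day 2 in the growth protocol. Cells were dissociated and the cerebellar granule neuron progenitors (CGNPs) enriched on a density gradient before extraction, with an RNA integrity number of at least 7.5. The DKO group is labelled GSK-3 DKO, with both isoforms of the kinase Gsk-3 deleted. The Math1-Cre control (M1Cre Gska+-, GskBff) is labelled as having Gsk-3b deleted only, and the no-Cre control (no cre Gska+-, GskBff) as having Gsk-3 intact. By these descriptions both controls carry 1 altered Gsk3a allele. The description of no-Cre replicate 5 leaves out the Gsk3b genotype, and replicate 5 of each group carries the code cg1724. Math1 (Atoh1), whose promoter drives the Cre, is active in granule neuron progenitors, which are not of the oligodendrocyte lineage. Each library is described as whole cerebella of 1 replicate, with no litter named, so p-values measure only the spread between these samples.

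Oligodendrocyte precursors enter the cerebellum from outside the granule neuron lineage, mostly from the neighbouring hindbrain. They divide under platelet-derived growth factor, which acts on the receptor made from Pdgfra, and later leave the cycle, pass through a committed stage and wrap axons in myelin. Around birth the cerebellum holds mostly precursors, and myelin appears later. In RNA from mixed cells, fewer cells of a type and less RNA per cell cannot be told apart. How far the enrichment for granule neuron progenitors removed other cells from each preparation was not measured.

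The stretches upstream of the start site are shown for a transcription factor, a receptor and a myelin enzyme whose levels behaved differently across the libraries. RefSeq (GRCm38.p6) held an upstream entry for 4 of the 8 members: Olig2, Pdgfra, Cspg4 and Cnp. Each window is the 250 bases before the start, and capitals mark the matches to the motifs searched: ACAAAG and ACAATG (letters bound by SOX factors), CAGCTG and CATATG (E-boxes, bound by factors of the Olig class), each on both strands, and TATAAA on the gene's strand.
Olig2, chr16:91225300-91225549, plus strand: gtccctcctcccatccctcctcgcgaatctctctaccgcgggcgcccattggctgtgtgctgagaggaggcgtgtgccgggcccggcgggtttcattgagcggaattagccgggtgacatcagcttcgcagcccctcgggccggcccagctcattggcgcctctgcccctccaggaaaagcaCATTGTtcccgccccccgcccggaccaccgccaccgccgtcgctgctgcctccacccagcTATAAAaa
Pdgfra, chr5:75152001-75152250, plus strand: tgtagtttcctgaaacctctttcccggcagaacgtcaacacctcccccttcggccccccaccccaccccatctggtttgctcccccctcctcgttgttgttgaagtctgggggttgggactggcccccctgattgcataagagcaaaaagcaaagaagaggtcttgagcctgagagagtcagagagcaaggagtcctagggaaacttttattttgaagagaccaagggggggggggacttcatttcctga
Cnp, chr11:100574689-100574938, plus strand: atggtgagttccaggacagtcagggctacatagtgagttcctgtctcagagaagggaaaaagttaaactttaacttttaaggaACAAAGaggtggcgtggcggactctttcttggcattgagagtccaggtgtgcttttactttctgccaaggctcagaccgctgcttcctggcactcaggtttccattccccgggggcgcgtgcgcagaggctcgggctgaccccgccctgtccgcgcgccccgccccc
The Olig2 window held CATTGT, the reverse complement of ACAATG, beginning 68 bases before the start, and TATAAA beginning 8 bases before it. The Cnp window held ACAAAG beginning 167 bases before the start. The Pdgfra window and that of Cspg4 (chr9:56864854-56865103, plus strand) held no match to these letters. Of 32851 windows of this length, ACAATG was found in 10.7%, ACAAAG in 16.5%, CAGCTG in 13% and CATATG in 3.46% on either strand, and TATAAA in 7.59%. The window of Olig2 had the highest GC content of the 4, 66.8%, against 60.4% for Cspg4, 57.2% for Cnp and 54.4% for Pdgfra.

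The targeted genes were read first. The row for Gsk3a, which the array shares with 9130221H12Rik, fell into a low and a high class on either side of 9.0 log2 units. It was low in DKO replicates 2, 4 and 5 and in Math1-Cre replicates 1 and 2, and high in the other 10 libraries. The libraries labelled DKO replicates 1 and 3 and Math1-Cre replicates 1 and 2, 4 of 15, therefore went against their labels. The comparisons of DKO with the controls below are also given for the other 11 libraries, for some marker lists as medians only. Gsk3b lay between 10.59 and 10.98 in all 15 libraries, so this row did not separate the genotypes. The interquartile range of an array's values was 3.51 to 3.74 in DKO, 3.75 to 3.82 in the Math1-Cre control and 3.43 to 3.85 in the no-Cre control. As a measure of background, the 95th percentile of the olfactory and vomeronasal receptor genes, taken as genes that are off in brain, was 4.65 to 5.58, lowest in no-Cre replicate 5 and highest in DKO replicate 3.

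Olig1 and Olig2 are neighbouring genes of chromosome 16 that encode the basic helix-loop-helix factors that set up the lineage. Olig1 read 8.23, 8.26, 8.22, 8.26 and 7.97 in DKO replicates 1 to 5, on the log2 scale used for every level here. It read 8.41, 8.44, 8.28, 8.25 and 7.65 in the Math1-Cre control and 8.38, 8.03, 8.77, 7.95 and 8.49 in the no-Cre control. The groups overlapped throughout, and Math1-Cre replicate 5 was the lowest library and no-Cre replicate 3 the highest. Olig2 read 7.20, 7.31, 7.25, 7.40 and 7.33 in DKO. It read 7.34, 7.55, 7.33, 7.53 and 7.17 in the Math1-Cre control and 7.47, 7.23, 7.64, 7.17 and 7.57 in the no-Cre control. The same libraries, Math1-Cre replicate 5 and no-Cre replicate 3, were the lowest and the highest for Olig2. The SD of Olig2 was 0.077 in DKO and 0.16 and 0.21 in the Math1-Cre and no-Cre controls.

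Pdgfra, the receptor through which platelet-derived growth factor keeps precursors dividing, lies on chromosome 5. It read 8.70, 8.91, 8.60, 8.56 and 9.12 in DKO. It read 8.98, 9.17, 9.06, 9.07 and 9.39 in the Math1-Cre control and 9.23, 9.10, 9.18, 8.97 and 9.24 in the no-Cre control. DKO replicates 1 to 4 lay below every control library, and DKO replicate 5 lay within the range of both controls. Cspg4, on chromosome 9, encodes the NG2 proteoglycan of the precursor surface, which pericytes also carry. It read 5.56, 5.43, 5.12, 5.66 and 5.35 in DKO, 5.88, 5.93, 5.90, 5.50 and 5.68 in the Math1-Cre control and 5.79, 5.56, 5.52, 5.08 and 5.58 in the no-Cre control. The highest values were those of Math1-Cre replicates 1 to 3, and the lowest that of no-Cre replicate 4.

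Sox10, on chromosome 15, encodes the factor that the lineage keeps from precursor to myelin. Its values were 4.95, 5.11, 4.58, 4.95 and 4.90 in DKO, 5.27, 5.17, 5.25, 4.97 and 4.45 in the Math1-Cre control and 5.06, 4.48, 5.23, 4.58 and 5.18 in the no-Cre control. Its mean over all libraries, 4.94, did not exceed the mean 95th percentile of the receptor genes, 4.99, and in 6 of 15 libraries it lay at or under that of its own array, so its level was at background. Gpr17 encodes a receptor of precursors about to differentiate. It read 5.30, 5.87, 5.31, 5.93 and 5.27 in DKO, 5.87, 6.01, 6.01, 5.85 and 5.61 in the Math1-Cre control and 6.14, 5.65, 6.26, 5.84 and 5.92 in the no-Cre control. DKO split here: replicates 1, 3 and 5 lay below every control library, and replicates 2 and 4 lay inside the control range. In DKO replicates 3 and 5 Gpr17 lay under the 95th percentile of the receptor genes on the same array, as Cspg4 did there and in no-Cre replicate 4, so that differences of these genes rest in part on values at background.

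Mbp encodes myelin basic protein, which compacts the sheath. It read 6.12, 5.70, 5.78, 5.98 and 5.64 in DKO, 6.12, 6.13, 6.36, 6.12 and 6.04 in the Math1-Cre control and 6.52, 6.12, 6.43, 5.97 and 6.22 in the no-Cre control. DKO replicates 2, 3 and 5 lay below every control library. The 4 libraries printed as 6.12 share 1 identical deposited value, which is the median of that row; 12.3% of the array's rows hold a value repeated in at least 3 libraries, and in 95.1% of those rows it is the row's median. Cnp, on chromosome 11, encodes an enzyme of the inner sheath that immature oligodendrocytes already make. It read 6.17, 6.398, 6.12, 6.4999 and 6.33 in DKO, 6.83, 6.87, 6.62, 6.65 and 6.12 in the Math1-Cre control and 6.49, 6.17, 6.55, 6.00 and 6.45 in the no-Cre control. Math1-Cre replicates 1 to 4 held the 4 highest Cnp values of the series, and Math1-Cre replicate 5 was among the 3 lowest.

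**Figure D1:**
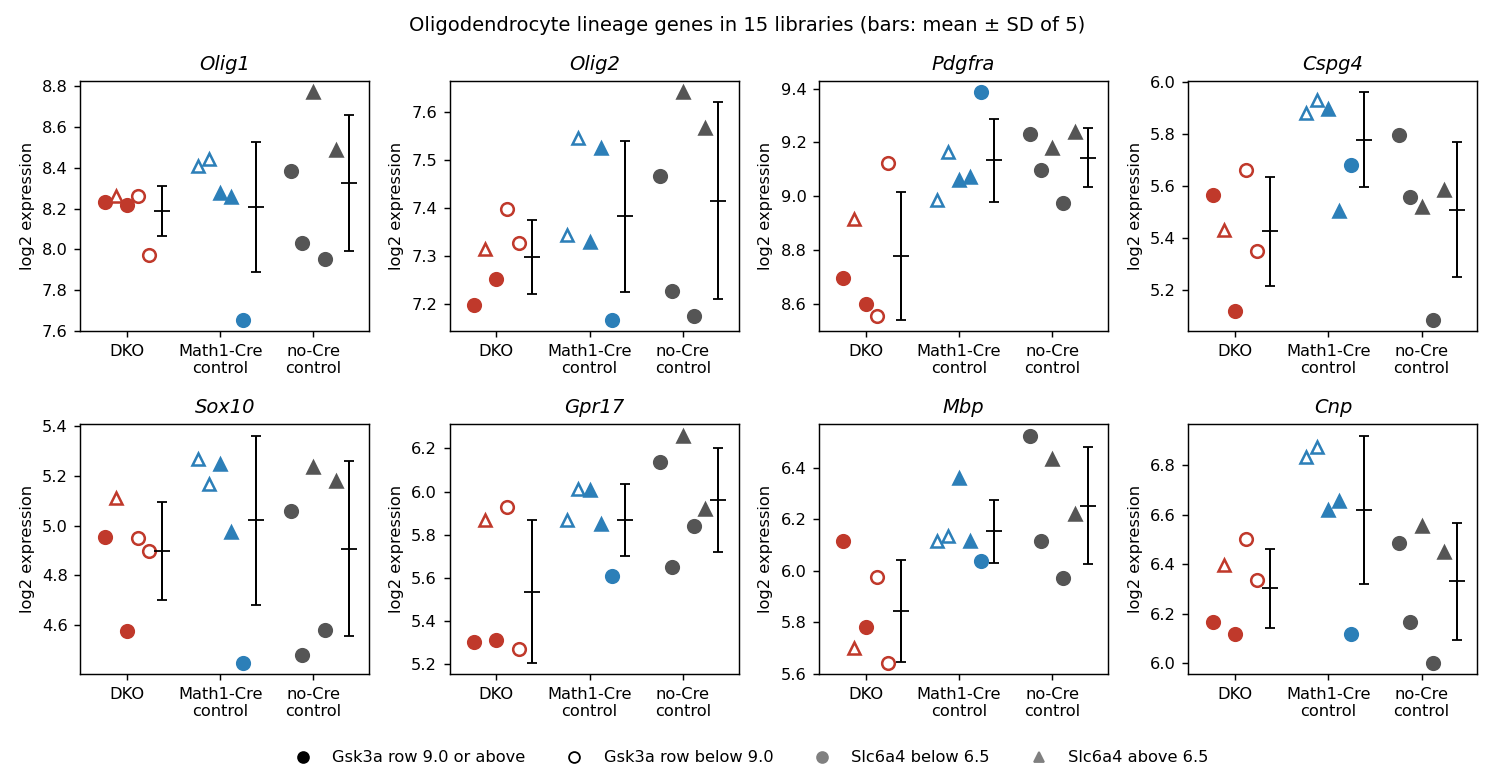
Level of each of the 8 genes in each of the 15 libraries, on the log2 scale (vertical axis), by genotype group (horizontal axis); points are libraries (open where the Gsk3a row is below 9.0, triangles where Slc6a4 is above 6.5) and bars the mean ± SD of 5. In every panel the groups overlap; DKO replicates 1 to 4 lie below all control libraries for Pdgfra, and Math1-Cre replicate 5 stands low for Olig1, at 7.65.

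The first comparison sets the libraries labelled DKO against those labelled no-Cre control. All 8 means were lower in DKO, though Sox10 and Cnp turned above 0 with Slc6a4 as a covariate, Cspg4, Sox10 and Cnp with the spread of the array as one, and Olig1, Olig2, Sox10 and Cnp without the libraries of high Slc6a4. The members had a median difference of -0.13 on the log2 scale, where 54.1% of all genes had a difference below 0 and the median over all genes was -0.02. Mbp was at 5.84 ± 0.20 (SD, n = 5) in DKO and 6.25 ± 0.23 in the no-Cre control, a difference of -0.41 ± 0.11 (SE; limma, adjusted p = 0.117). Pdgfra was at 8.78 ± 0.24 and 9.14 ± 0.11, a difference of -0.37 ± 0.11 (limma, adjusted p = 0.129). Gpr17 was at 5.54 ± 0.33 and 5.96 ± 0.24, a difference of -0.42 ± 0.15 (limma, adjusted p = 0.174). These 3 differences had an unadjusted p below 0.05, as did 17.4% of all genes, and their 95% intervals were -0.65 to -0.17 for Mbp, -0.59 to -0.14 for Pdgfra and -0.74 to -0.11 for Gpr17. The other 5 differences ran from -0.14 for Olig1 to -0.01 for Sox10, with adjusted p from 0.549 to 0.985 in the same limma fit. The fit called 0 of the 8 members, and 0.0721% of all genes. Without no-Cre replicate 4 it called Mbp (adjusted p = 0.0286) and Pdgfra (0.0440), beside 6.97% of all genes. That array had the smallest interquartile range of the series, 3.43. The other no-Cre arrays had 3.77 to 3.85, and DKO replicates 3 to 5 had 3.51 to 3.56. The part of array spread in these calls was not tested. Without DKO replicate 5 the limma fit called Pdgfra (adjusted p = 0.0458), beside 0.861%. Centring each array on its median also called both, at 0.0435 for Mbp and 0.04996, just inside the threshold, for Pdgfra, beside 2.95% of all genes, with the median over all genes moved to -0.09. Weighting the arrays called both at 0.0487 and 0.0440, beside 3.33% of all genes.

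Against the libraries labelled Math1-Cre control, DKO means were again lower for all 8 members, though Olig1 turned to 0.051 after quantile normalization, Olig1 and Sox10 to 0.14 and 0.059 with Slc6a4 as a covariate, and Olig1, Olig2 and Sox10 above 0 with array spread. Without the libraries of high Slc6a4, Olig1, Olig2, Sox10 and Cnp turned, to 0.52, 0.13, 0.40 and 0.16. The members had a median of -0.31 where the median over all genes was -0.05 and 60.7% of genes lay below 0. The same DKO libraries enter both comparisons, so they are not independent of each other. Pdgfra differed by -0.36 ± 0.11 (SE; limma, adjusted p = 0.0956), from 9.13 ± 0.15 (SD, n = 5) in the Math1-Cre control. Cspg4 differed by -0.35 ± 0.13 (adjusted p = 0.136), Gpr17 by -0.33 ± 0.15 (0.199), Cnp by -0.32 ± 0.14 (0.197) and Mbp by -0.31 ± 0.11 (0.136). Cspg4 and Cnp thus stood lower against this control by 0.35 and 0.32, and differed from the no-Cre control by -0.08 and -0.03. These 5 genes had an unadjusted p below 0.05 in limma, as did 23.0% of all genes. Olig1, Olig2 and Sox10 differed by -0.02, -0.08 and -0.12. The limma fit called 0 of the 8 members, and 0.550% of all genes; without DKO replicate 5 it called Pdgfra (adjusted p = 0.0383), beside 1.81% of all genes, and so it did after median centring, also at 0.0383, beside 7.97%.

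Between the libraries labelled as the 2 controls, limma called 0 of the 8 members and 0.00% of all genes, with 3.23% of genes at an unadjusted p below 0.05 and none of the members. Cnp was 0.29 ± 0.14 higher in the Math1-Cre control, with a 95% interval of -0.01 to 0.59. Cspg4 was 0.27 ± 0.13 higher, with an interval of -0.01 to 0.55. The other 6 members differed by -0.12 to 0.11. In the 3 comparisons no member had groups that did not overlap; among all genes, the DKO libraries lay below all no-Cre libraries for 1.96% and below all Math1-Cre libraries for 5.51%.

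**Figure D2:**
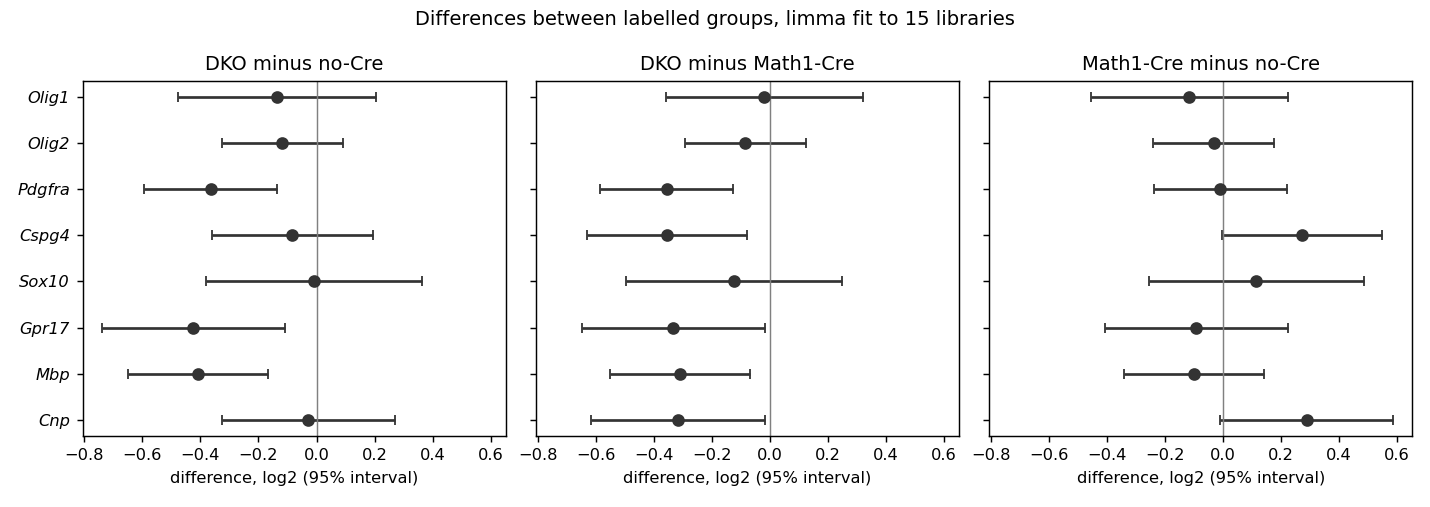
Difference of each gene between genotype groups on the log2 scale (horizontal axis), with 95% intervals from the limma fit to 15 libraries; the 3 panels are the 3 comparisons. Intervals of Pdgfra, Gpr17 and Mbp lie below 0 in both DKO panels and those of Cspg4 and Cnp only in the panel against the Math1-Cre control, before adjustment over all genes.

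In the 11 libraries whose Gsk3a row went with the label, 3 DKO, 3 Math1-Cre and 5 no-Cre, the difference of Mbp between DKO and the no-Cre control was -0.48 ± 0.14 (limma, adjusted p = 0.151). Pdgfra differed by -0.28 (0.399) and Gpr17 by -0.27 (0.538), while Cnp and Sox10 turned to +0.08. Against the Math1-Cre control Mbp differed by -0.40 (0.256), Pdgfra by -0.31 (0.324) and Cspg4 by -0.21, and Olig1 and Sox10 turned to +0.10 and Olig2 to +0.01. The limma fit called 0 of the 8 members in either comparison, where it called 1.08% and 0.541% of all genes and where 12.7% and 15.9% had an unadjusted p below 0.05.

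Split by the Gsk3a row alone, the 5 low and the 10 high libraries overlapped for all 8 members; among all genes, 0.663% lay higher and 0.843% lower in the low class without overlap. These classes come from measured values, so they are described with no test. Median Olig1 was 8.26 in the low and 8.24 in the high class, and median Olig2 7.34 and 7.29. Median Sox10 was 5.11 and 4.96, median Gpr17 5.87 and 5.84, and median Cspg4 5.66 and 5.56. The receptor and the compact myelin gene ran the other way, with medians of 8.98 and 9.09 for Pdgfra and of 5.98 and 6.12 for Mbp. Median Cnp was 6.4999 in the low and 6.31 in the high class.

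Slc6a4 encodes the serotonin transporter of raphe neurons, which lie in the brainstem below the cerebellum, and its level was taken as a measure of brainstem content. It read 5.01, 7.16, 5.49, 4.52 and 5.28 in DKO, 7.08, 6.77, 8.05, 8.21 and 3.66 in the Math1-Cre control and 5.73, 3.42, 8.56, 5.89 and 7.08 in the no-Cre control. It was above 6.5 in 7 libraries: DKO replicate 2, Math1-Cre replicates 1 to 4 and no-Cre replicates 3 and 5. Of 12 brainstem markers listed, 9 were measured; 6 of these (Tph2, Hoxb2, Hoxb3, Hoxa2, Hoxa3 and Hoxb4) had a mean at background. Their mean level ran from 3.95 to 5.07 in DKO, 3.84 to 5.50 in the Math1-Cre control and 3.95 to 6.05 in the no-Cre control. Slc6a4 correlated with the mean of the other 8 at r = 0.73 over the 15 libraries. The noradrenergic genes Dbh and Slc6a2 departed from it in DKO replicates 4 and 5, classed low by Slc6a4, where Dbh read 7.25 and 7.81 and Slc6a2 7.18 and 7.44. The list's mean of 5.07 in DKO replicate 5 was above those of DKO replicate 2, Math1-Cre replicate 2 and no-Cre replicate 5, all classed high.

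Sox10 and Cnp moved most with Slc6a4 by class: their medians were 5.18 and 6.62 in the 7 libraries above 6.5, and 4.74 and 6.17 in the 8 below. Median Gpr17 was 5.92 above and 5.63 below, median Olig2 7.53 and 7.24, and median Olig1 8.41 and 8.13. Pdgfra, at 9.07 and 9.04, Cspg4, at 5.58 and 5.56, and Mbp, at 6.13 and 6.01, had nearer medians. No member's classes were free of overlap, where 0.478% of all genes lay higher and 0.0766% lower without overlap above 6.5. Math1-Cre replicate 5 and no-Cre replicate 2 had the lowest Slc6a4, 3.66 and 3.42, and the lowest 2 values of Sox10, 4.45 and 4.48. Both genes lay at background on these arrays.

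Across the 15 libraries, Pearson's r with Slc6a4 was 0.77 for Sox10 (permutation p = 0.001, adjusted over the 8 members 0.008; Spearman's rho 0.79, adjusted p = 0.00592). It was 0.71 for Olig1 (permutation, adjusted p = 0.0114; rho 0.65, adjusted p = 0.0431), 0.66 for Olig2 (0.0216; rho 0.61, 0.0431) and 0.64 for Cnp (0.0235; rho 0.59, 0.0431). Gpr17 had r = 0.57 (permutation, adjusted p = 0.0456; rho 0.55, adjusted p = 0.0553). Mbp had r = 0.32 (permutation, adjusted p = 0.315), and Pdgfra and Cspg4 each r = 0.15 (0.584). Precursor and myelin genes were thus found on both sides. Without the 2 libraries farthest from the median, no-Cre replicates 3 and 2, r was 0.68 for Sox10, 0.62 for Cnp and 0.61 for Olig1 (permutation, each adjusted p = 0.0689), 0.54 for Olig2 (0.118) and 0.48 for Gpr17 (0.152), so that the calls needed those libraries, and r kept its sign. In the 11 libraries the relation passed for Sox10 (r = 0.81, permutation, adjusted p = 0.0230) and Olig1 (r = 0.71, 0.0486) only. With the mean of the other brainstem markers in place of Slc6a4, it passed for Sox10 (r = 0.77), Cnp (0.70), Olig2 (0.67) and Olig1 (0.61). Gpr17 then had r = 0.42 (permutation, adjusted p = 0.195). After quantile normalization the relation with Slc6a4 passed for Sox10 and Olig1 only (r = 0.74 and 0.67, permutation, each adjusted p = 0.0154). The interquartile range of an array was 3.73 to 3.85 where Slc6a4 was above 6.5, and 3.43 to 3.80 where it was below. The part of array spread in the relation was not tested.

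Within the genotype groups, each further log2 unit of Slc6a4 went with 0.14 ± 0.034 (SE) more Sox10 (limma with Slc6a4 as covariate, adjusted p = 0.116) and 0.13 ± 0.032 more Olig1 (0.141). The slopes of Cnp and Gpr17 were both 0.088, with SE of 0.033 and 0.036, and that of Olig2 was 0.063 ± 0.023. The slopes of Mbp, Pdgfra and Cspg4 were 0.03, -0.01 and -0.01. All these slopes include the 5 libraries with Slc6a4 at background. The fit called 0 of the 8 slopes, and 0.261% of all genes. The 5 members with the steepest slopes had both a slope above 0 and an unadjusted p below 0.05 in limma. Of all 22180 genes, 4.68% had both. With this covariate the differences of DKO from the no-Cre control were -0.39 for Mbp, -0.37 for Pdgfra and -0.37 for Gpr17, near those without it, while the differences from the Math1-Cre control were -0.28, -0.37 and -0.22.

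**Figure D3:**
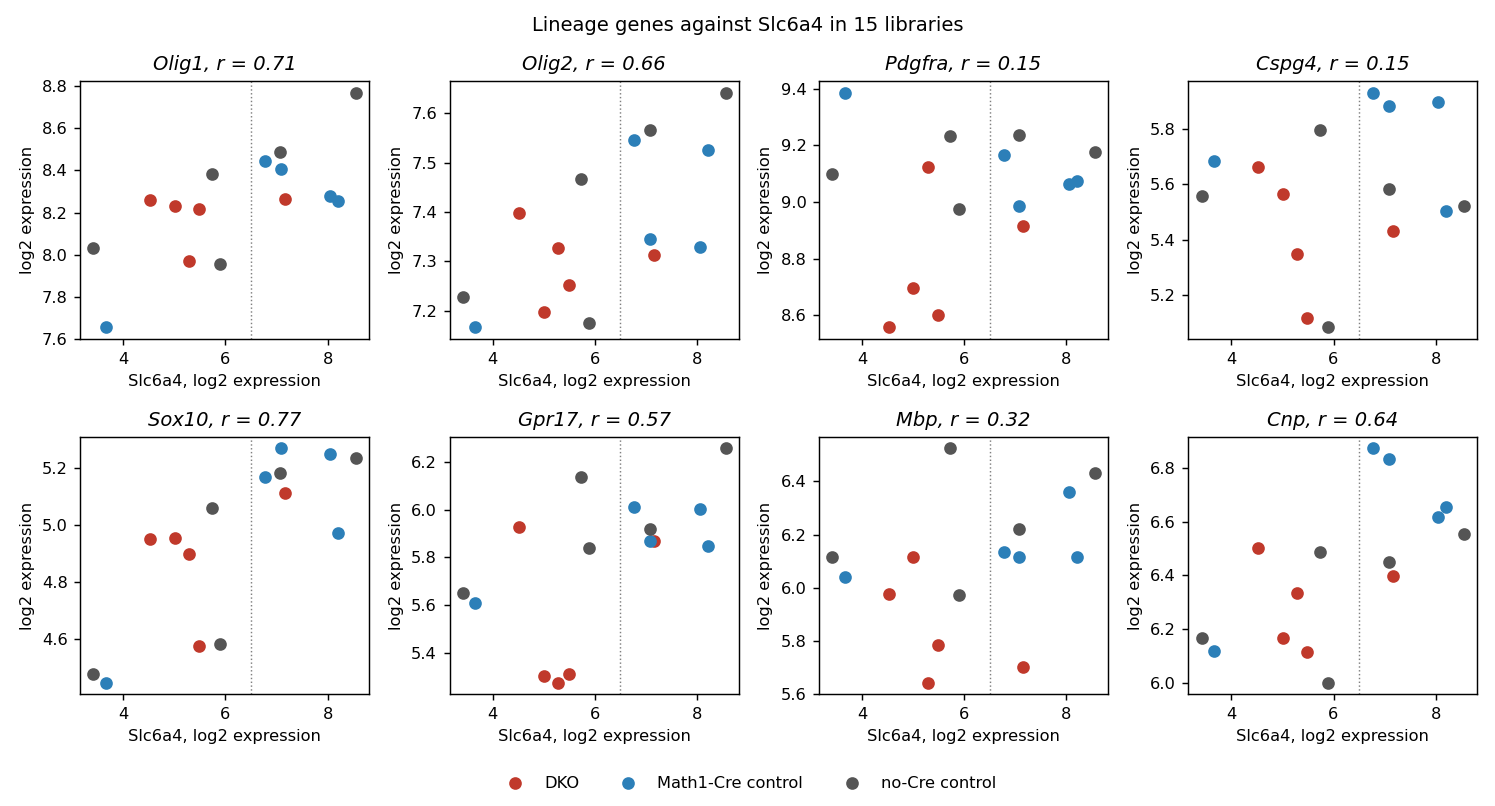
Level of each gene (vertical axis, log2) against Slc6a4 (horizontal axis, log2) in the 15 libraries, coloured by genotype group, with Pearson's r above each panel and the division at 6.5 dotted. Sox10, Olig1, Olig2 and Cnp rise from left to right, with r of 0.64 to 0.77, and Pdgfra and Cspg4 show r = 0.15.

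Members that share a neighbour or a cell stage did not always vary alike. Over the 15 libraries r was 0.81 between Olig1 and Olig2, 0.80 between Olig1 and Sox10, and 0.82 between Sox10 and Cnp. Cspg4 and Cnp had r = 0.72, as had Olig2 and Cnp. Pdgfra had r of -0.06 to 0.42 with the other 7 members. Among the 15525 genes with a mean at or above the 30th percentile, those most like Olig2 were Usp27x (r = 0.89), Ndrg4 (0.86), Wdr7 (0.85), Gramd3 (0.85) and the neural progenitor factor gene Sox2 (0.84). Those most like Mbp were Abcb9 (r = 0.92), Mtmr11 (0.90), Rngtt (0.89), Klhl5 (0.89) and Psip1 (0.89). These values describe 15 libraries that also share normalization, dissection and array spread, and have no test.

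Markers of other cells, some of which express members, were read beside the members. Pdgfra is also made by meningeal fibroblasts, and Cspg4 by pericytes. The mean of 6 meningeal markers ran from 7.14 to 8.11 in DKO, 7.14 to 8.34 in the Math1-Cre control and 7.43 to 7.88 in the no-Cre control; all 6 were above background. The mean of 7 pericyte markers, all above background, ran from 7.47 to 8.18, 7.73 to 8.38 and 7.78 to 8.13 in these groups. Math1-Cre replicate 5 was the highest library for both lists and for Pdgfra, and DKO replicate 5 was the highest DKO library for both lists and for Pdgfra; their part in the Pdgfra result was not tested. The mean of 10 astrocyte and Bergmann glia markers ran from 8.35 to 8.60 in DKO, 8.45 to 8.86 in the Math1-Cre control and 8.31 to 8.74 in the no-Cre control. The median difference of these markers in DKO was -0.04 from the no-Cre and -0.20 from the Math1-Cre control. Slopes of these genes on Slc6a4 within groups ran from -0.02 for Sox9 to 0.14 for Aqp4. That of Aldoc was 0.12 ± 0.030 (SE, limma with Slc6a4 as covariate, adjusted p = 0.141), so slopes as steep as that of Olig1 were not particular to the members. For Schwann cells, whose myelin also holds Mbp, 3 of 5 markers were measured, and Cdh19 and Foxd3 had means at background. The pericyte list had a median difference of -0.29 from the no-Cre and -0.20 from the Math1-Cre control, and the meningeal list of -0.18 and 0.00. Of 7 endothelial markers, all above background, 7 were lower in DKO in both comparisons, with medians of -0.26 and -0.21. Of 8 microglial markers measured, 4 of them at background, 7 were lower in both, with medians of -0.22 and -0.35, and 4 had an unadjusted p below 0.05 against the Math1-Cre control. In the 11 libraries the medians against the no-Cre and the Math1-Cre control were -0.10 and -0.20 for pericytes and 0.05 and 0.09 for meninges. They were -0.29 and -0.24 for endothelial and -0.22 and -0.29 for microglial markers. The 6 granule neuron markers, of the cells that the gradient enriched, had medians of -0.13 and -0.01 in the 15 libraries. Among them Atoh1 read 7.81 to 8.65 in DKO, 8.03 to 9.09 in the Math1-Cre control and 8.94 to 9.31 in the no-Cre control. In the 11 libraries Atoh1 differed by -0.80 from the no-Cre control (limma, adjusted p = 0.0495), and the other 5 granule neuron markers did not pass. The limma fit called none of the markers of these cells, nor of those of brainstem, in the 3 comparisons of the 15 libraries. After median centring it called 1 astrocyte and 2 granule neuron markers lower against the no-Cre control. Against the Math1-Cre control it then called 1 granule neuron and 2 microglial markers lower. The part of these cells in the members' differences was not tested. The spread of an array was lower in every DKO library than in every Math1-Cre library and overlapped with the no-Cre control. With it as a covariate, Mbp differed by -0.30 from the no-Cre and by -0.16 from the Math1-Cre control, Pdgfra by -0.32 and -0.29, and Gpr17 by -0.36 and -0.24.

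The wider lineage was read from 4 lists: 12 further precursor genes, 12 genes of committed cells, 13 myelin genes and 12 genes of signals acting on precursors. The lists hold 49 genes analysed here, and 7 of the 13 myelin genes (Mag, Mog, Mobp, Mal, Opalin, Ermn and Gal3st1) had means at background, as had Neu4, Matn4 and Nkx6-2 among precursor genes, Enpp6 and Myrf among committed genes and Fgf2 among signals. The limma fit to the values as deposited, without covariates or array weights, called none of the 49 measured genes in any comparison of the 15 libraries. Against the no-Cre control, 2 of 12 precursor, 3 of 12 committed, 3 of 13 myelin and 1 of 12 signal genes had an unadjusted p below 0.05 and were lower in DKO, beside 11.9% of all genes; 1 committed and 1 myelin gene were higher. Against the Math1-Cre control the lower ones numbered 2, 2, 4 and 2, beside 15.4% of all genes. The list medians were 0.04, -0.08, -0.10 and -0.02 against the no-Cre control, on the log2 scale. Against the Math1-Cre control they were 0.00, -0.08, -0.07 and -0.08. After median centring, limma called 2 committed genes and 1 myelin gene lower against the no-Cre control, beside 2.95% of all genes. Against the Math1-Cre control it then called 1 precursor, 1 committed, 2 myelin and 1 signal gene lower, beside 7.97%.

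Zfp488, a zinc finger partner of Olig2 in differentiation, read 5.86, 5.32, 5.93, 5.55 and 5.78 in DKO, 5.76, 5.66, 6.25, 6.32 and 5.91 in the Math1-Cre control and 6.29, 6.46, 6.21, 6.33 and 6.31 in the no-Cre control. DKO and no-Cre libraries did not overlap, as for 1.96% of all genes, and the difference was -0.63 ± 0.14 (limma, adjusted p = 0.0723). Gpr37, a receptor that restrains oligodendrocyte maturation, read 6.04 to 6.49 in DKO and 6.55 to 7.12 in the Math1-Cre control, with no overlap, as for 5.51% of all genes, and a difference of -0.53 ± 0.13 (adjusted p = 0.0655). Fa2h, which makes the hydroxylated lipids of myelin, differed by -0.52 ± 0.16 from the no-Cre (0.136) and by -0.44 ± 0.16 from the Math1-Cre control, with DKO replicates 3 to 5 and no-Cre replicate 4 at background on their own arrays. Gjc3, a connexin of myelinating glia, spread from 3.68 to 7.23 over the libraries, so that its difference of -0.81 from the no-Cre control had an SE of 0.60 and an adjusted p of 0.496 in limma. Among precursor genes, Sox8 differed by -0.28 and the receptor phosphatase gene Ptprz1 by -0.23 from the no-Cre control, with adjusted p of 0.161 and 0.276. Among signals the largest differences were those of Pdgfc, a ligand of the receptor made from Pdgfra, at -0.37 (adjusted p = 0.277), and of the Notch ligand gene Jag1, at -0.16 (0.521). Tcf7l2, a Wnt pathway factor of committed cells, differed by 0.61 with an SE of 0.49 (adjusted p = 0.526). Against the Math1-Cre control the largest in their lists were also Ptprz1 at -0.29, Nkx6-2, which lay at background in all 15 libraries, and Jag1 and Lingo1 at -0.23 each, and none of these passed.

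In the 11 libraries, 3 genes of these lists passed against the no-Cre control, beside 1.08% of all genes. Bcas1, which marks newly formed oligodendrocytes, was higher in DKO by 0.68 ± 0.086 (limma, adjusted p = 0.00239), and by 0.77 ± 0.096 than in the Math1-Cre control (0.00346). It passed in both comparisons whichever of the 11 libraries was left out, with adjusted p up to 0.0259. The 11 libraries were kept by their Gsk3a row, so each of these fits sets low DKO libraries against high control libraries. The passes of the 3 genes are therefore no test apart from that division. Zfp488 was lower by 0.77 ± 0.12, a difference of -0.77 (adjusted p = 0.0101), and failed without DKO replicate 4 (0.0617). Pdgfc differed by -0.60 ± 0.12 (limma, adjusted p = 0.0402). With each library left out in turn, it passed only without Math1-Cre replicate 5 (0.0417) or no-Cre replicate 4 (0.0174). It reached 0.197 without DKO replicate 4. Neither Zfp488 nor Pdgfc passed against the Math1-Cre control, with differences of -0.61 and -0.54 (limma, adjusted p = 0.0840 and 0.125).

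These 3 genes also followed the Gsk3a row over all 15 libraries, whatever the label. Bcas1 lay between 6.18 and 6.46 in the 5 low libraries and between 5.50 and 5.80 in the 10 high ones. Zfp488 lay between 5.32 and 5.78 in the low and between 5.86 and 6.46 in the high libraries. Pdgfc lay between 8.61 and 8.99 in the low and between 9.26 and 9.66 in the high libraries. The precursor matrix gene Vcan, at 9.93 or above in the low libraries and 9.88 or below in the high ones, was the only other gene of the 4 lists whose low and high libraries did not overlap; among all genes 0.663% lay higher and 0.843% lower without overlap, and these genes were singled out after their values were seen. The 11-library fit holds low libraries in DKO and high ones in the controls only, so it shares this division and is no separate support for it.

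**Figure D4:**
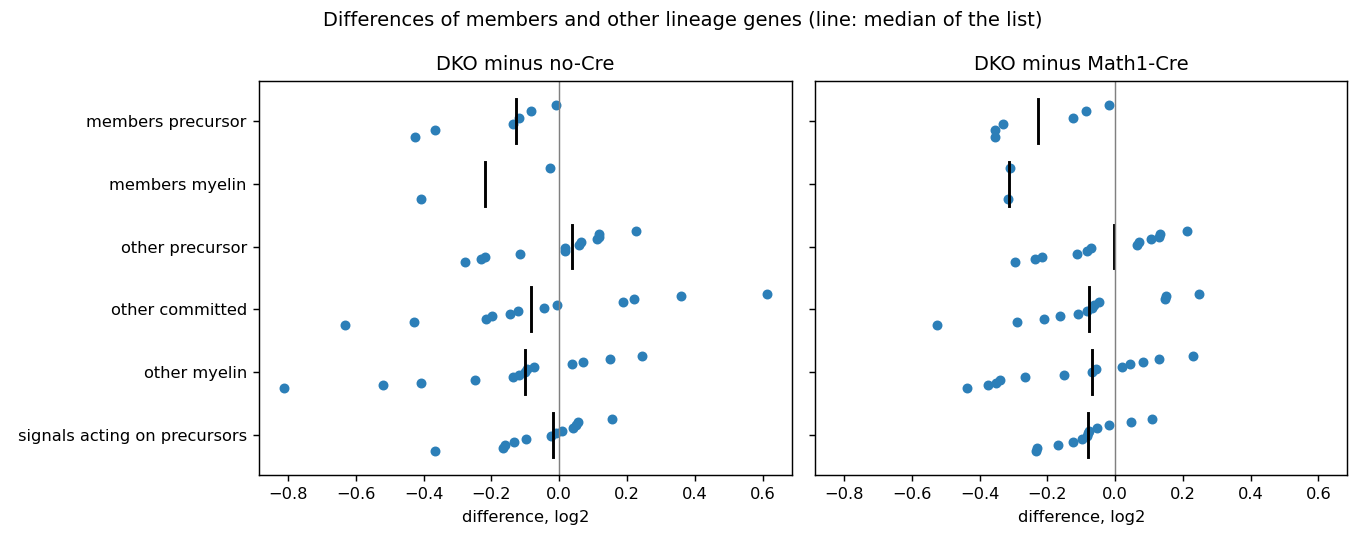
Difference from DKO to each control on the log2 scale for the members and the genes of the 4 wider lists, each point a gene and each line the list's median. The medians of precursor and myelin members, -0.13 and -0.22 against the no-Cre control and -0.23 and -0.31 against the Math1-Cre control, lie below those of the wider lists, which run from -0.10 to 0.04.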

How the data were processed

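The values used are log2 expression levels per array row, as the authors deposited them, made with RMA in Partek 6.6 per the submitters' processing notes, which also name mm9. RMA combines the probes of a row by median polish; the deposited arrays still differ in spread, with interquartile ranges of 3.43 to 3.85. Of 41345 rows, 23521 carry 1 gene symbol, 1814 several and 16010 none; the row with the highest mean stood for each of 22180 genes. Groups came from the sample titles.

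Group means were fitted with limma 3.58.1 (R 4.3.3) on all 15 libraries, with Benjamini-Hochberg adjustment over 22180 genes and a threshold of 0.05. Correlations with Slc6a4 used 100000 permutations (Python 3.11.15), two-sided, over 8 members. The number of arrays limits precision. The fit was tested on simulated data with independent noise and changes larger than the members' differences, so that test does not bear on differences of their size. The members and lists, and the limits of 9.0 for the Gsk3a row and 6.5 for Slc6a4, were chosen with earlier results of these data known. From each wider list, genes past the test were named, up to 4 per direction, otherwise those with the largest differences. Alternatives covered filters, scaling, moderation, weights per array, a block for the replicate number, covariates and libraries left out.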

Additional observations from a re-analysis of the deposited data

Results flagged for a closer look

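In 2 of the 24 sets formed by the 8 genes in the 3 genotype groups, 1 library stood farther from the other 4 than Dixon's limit of 0.71 of the range; chance gives about 1 such set in 20. Both concern Olig1. It read 7.97 in DKO replicate 5, where the other DKO libraries lay between 8.22 and 8.26, and 7.65 in Math1-Cre replicate 5, where the others lay between 8.25 and 8.44. Both libraries carry the code cg1724 in their descriptions, as does no-Cre replicate 5, whose Olig1 was 8.49.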

How the results depend on the processing

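Limits: Sox10 and most late myelin genes lay at background, as did Slc6a4 in 5 of 15 libraries. In addition, 4 of 15 libraries went against their Gsk3a label, and the number of arrays bounds what could be called. The 8 members gave 0 calls in every comparison except that DKO against the no-Cre control gave 2 with median centring and 2 with array weights, DKO against the Math1-Cre control gave 1 with median centring, and leaving out each library in turn gave 0 to 2, 0 to 1 and, between the controls, 0 to 0. The relation with Slc6a4 passed for 5 members, for 2 after quantile normalization, for 5 after median centring, for 4 with the mean of the other brainstem markers, for 0 without the 2 libraries farthest from its median and for 2 in the 11 libraries. The cause of these changes was not tested. The counts for Slc6a4 were adjusted over the 8 members only, and the share of all genes that would pass was not computed. Adjusted over all genes, the slope on Slc6a4 within groups passed for 0 members, beside 0.261% of all genes.

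Signs turned as follows, on the log2 scale. DKO against the no-Cre control: with array spread as covariate, Cspg4 0.049, Sox10 0.13 and Cnp 0.054; in the 11 libraries, Sox10 0.079 and Cnp 0.0795; with Slc6a4 as covariate, Sox10 0.084 and Cnp 0.028; without libraries of Slc6a4 above 6.5, Olig1 0.047, Olig2 0.0039, Sox10 0.14 and Cnp 0.061. DKO against the Math1-Cre control: after quantile normalization, Olig1 0.051; with array spread, Olig1 0.16, Olig2 0.0017 and Sox10 0.078; in the 11 libraries, Olig1 0.10, Olig2 0.0057 and Sox10 0.10; with Slc6a4, Olig1 0.14 and Sox10 0.059; without high Slc6a4, Olig1 0.52, Olig2 0.13, Sox10 0.40 and Cnp 0.16. Math1-Cre against no-Cre control: in the 11 libraries, Pdgfra 0.0295 and Sox10 -0.017; without high Slc6a4, Pdgfra 0.28, Sox10 -0.26 and Cnp -0.10. Leaving out each library in turn gave -0.12 to 0.073 for Sox10 and -0.11 to 0.027 for Cnp in the first comparison, -0.16 to 0.0398 for Olig1 in the second, and -0.073 to 0.027 for Pdgfra, -0.21 to 0.021 for Olig1 and -0.093 to 0.0235 for Olig2 in the third. Mbp, Pdgfra and Gpr17 were lower in DKO than in each control under every alternative run, none of which used the Gpr17 row shared with Lims2. That row read 4.45 to 5.60 in DKO, 4.64 to 5.26 in the Math1-Cre control and 4.55 to 5.11 in the no-Cre control. It was not tested and its values do not repeat the lower level in DKO.

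Over all genes, 16 were called between DKO and the no-Cre control and 122 against the Math1-Cre control. These counts became 57 and 72 after quantile normalization, 654 and 1767 with centring, 739 and 773 with array weights, 33 and 236 with trend and robust moderation, 2 and 1 with array spread, 239 and 120 in the 11 libraries, 20 and 1 with Slc6a4 as covariate, and 0 and 0 without high Slc6a4; leaving out each library in turn gave 0 to 1546 and 0 to 1288. Of the 122, 93 were lower in DKO, and of the 1767 with centring, 1666. With the replicate number as a block they were 6 and 0, and 0 members were called. Deviations from the group means correlated at -0.30 to 0.30 between same-numbered libraries, so the numbers are not taken to pair the samples.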
